A study of Mus musculus with 9 samples.

Results

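The genes described here are the interleukins and their receptors on a mouse array, 60 genes of the 15096 that the array annotation names by a single symbol. They were taken by symbol alone, each symbol that starts with Il and a digit, a rule that uses no measured value. The group itself and the lists below were chosen with earlier results of these data known. Among them are 29 ligands, 25 receptor chains, 2 decoy receptors (Il1r2 and Il13ra2), 3 antagonists (Il1rn, Il1f5 and Il18bp) and the enzyme gene Il4i1. They were measured by 66 probes, and the probes of Il2ra (4), Il6st, Il15 and Il10rb (2 each) were averaged. The study set RNA of SJL/J mice against RNA of C57BL/6J mice, a pair of inbred strains, in brain, kidney and liver. All mice were male, 8 weeks old and carried no labelled treatment or engineered allele. In each tissue a pool of 5 SJL/J mice, labelled with Alexa Fluor 647, was hybridised against a pool of 5 C57BL/6J mice, labelled with Alexa Fluor 555, on 3 spotted arrays with 20 ug of RNA in each labelling.

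A log2 ratio above 0 means more signal from the SJL/J pool. This direction is the likely one, since the titles name SJL/J first and limma divides red by green, and the base of 2 is limma's as well. The 3 arrays of a tissue repeat the same 2 pools with the dyes never exchanged. Every SD and p-value below therefore covers the spread between arrays and not between mice. A strain difference and a dye effect particular to a probe cannot be told apart. This holds within a tissue and also for a sign shared by all 9 arrays, since the dyes were the same on each. A gene was called higher or lower where the mean of its 3 arrays passed limma's moderated test at a Benjamini-Hochberg adjusted p of 0.05 over all 15096 genes. Ratios say nothing of how strongly a gene is expressed. Since whole tissues were used, fewer cells of a type and less RNA per cell cannot be told apart.

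Interleukins are small secreted proteins by which leukocytes, epithelium, endothelium and glia signal to each other. Most act through receptors built from a chain specific to the ligand and a chain shared by several ligands, such as the common gamma chain, the common beta chain or Il6st (gp130), and signal through JAK kinases and STAT factors. The IL-1 and IL-17 families signal instead through adaptors that reach NF-kB, and decoy receptors and antagonists hold the IL-1 family in check. In liver, IL-6 and IL-1 are the textbook inducers of the acute phase proteins, and in brain and kidney IL-33 is an alarmin stored in the nuclei of resident cells.

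The promoters of the members with the largest ratios are shown for reference, since Il6ra, Il9r and Il1rl2 stood highest together in brain, Il3 stood lowest and Il33 differed in sign between tissues. Each run is the 250 bases before the annotated start, 5′ to 3′ on the strand of the gene, from RefSeq on build GRCm38.p6, an assembly of C57BL/6J, so the letters of SJL/J are not shown. Capitals mark matches to any of 5 motifs searched on both strands: the TATA box TATAAA, the pentamer CCAAT, the E-box CACGTG, the AP-1 site TGANTCA and the STAT palindrome TTCNNNGAA.
Il6ra (chr3:89913197-89913446, minus strand): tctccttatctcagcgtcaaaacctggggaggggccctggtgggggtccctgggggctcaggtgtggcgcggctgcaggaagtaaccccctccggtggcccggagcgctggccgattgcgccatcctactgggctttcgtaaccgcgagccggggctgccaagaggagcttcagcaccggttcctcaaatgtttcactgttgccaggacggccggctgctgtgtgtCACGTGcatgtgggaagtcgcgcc
Il9r (chr11:32200280-32200529, minus strand): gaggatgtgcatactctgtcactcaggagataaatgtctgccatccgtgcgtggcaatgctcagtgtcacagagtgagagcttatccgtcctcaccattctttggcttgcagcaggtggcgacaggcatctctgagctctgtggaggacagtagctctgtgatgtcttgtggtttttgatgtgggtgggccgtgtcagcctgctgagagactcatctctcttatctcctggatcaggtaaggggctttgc
Il1rl2 (chr1:40324339-40324588, plus strand): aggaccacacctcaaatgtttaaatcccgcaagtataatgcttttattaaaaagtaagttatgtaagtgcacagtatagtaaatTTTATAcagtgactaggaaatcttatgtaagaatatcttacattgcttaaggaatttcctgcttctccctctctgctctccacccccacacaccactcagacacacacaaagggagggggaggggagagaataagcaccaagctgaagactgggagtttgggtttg
Il33, the second of 2 annotated starts (chr19:29945540-29945789, plus strand): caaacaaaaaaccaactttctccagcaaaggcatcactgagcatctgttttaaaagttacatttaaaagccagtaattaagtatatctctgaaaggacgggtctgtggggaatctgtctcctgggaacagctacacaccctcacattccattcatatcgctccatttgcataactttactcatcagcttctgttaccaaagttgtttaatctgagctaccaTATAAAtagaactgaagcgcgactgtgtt
Il3 (chr11:54267280-54267529, minus strand): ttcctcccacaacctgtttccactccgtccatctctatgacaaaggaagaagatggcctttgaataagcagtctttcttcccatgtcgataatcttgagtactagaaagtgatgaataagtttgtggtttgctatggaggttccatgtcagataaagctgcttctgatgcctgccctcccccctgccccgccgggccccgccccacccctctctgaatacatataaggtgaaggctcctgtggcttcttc

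The Il6ra window held CACGTG 24 bases before the start, and the Il1rl2 window held TATAAA on the reverse strand 166 bases before it. The Il33 window shown held TATAAA 29 bases before its start. The window of the first Il33 start, not shown, held TATAAA 203 bases and the CCAAT pentamer 138 bases before that start. None of the 5 motifs lay in the windows of Il9r and Il3. Of all 32851 windows of that length, 12.4% held the TATA box, 33.8% the CCAAT pentamer, 6.02% the E-box, 6.75% the AP-1 site and 7.02% the STAT palindrome. Promoter windows were matched for 46 of the 60 genes (59 windows). The AP-1 site lay in 12 of these windows (20.3%), the TATA box in 11 (18.6%), the CCAAT pentamer in 19 (32.2%), the STAT palindrome in 5 (8.47%) and the E-box in 2 (3.39%). A match is a description of letters and not of a bound factor.

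The 9 arrays each held 23040 values with the same distribution, since the authors had equalised them, at a median of 0.01 and between -3.91 and 5.09. On kidney and liver arrays channel 1 is labelled as brain, and the array titles were followed. Brain replicate 3 stood apart: it correlated with brain replicates 1 and 2 at r = 0.52 and 0.57 over all probes, and with the kidney arrays at 0.60, 0.58 and 0.63. Its residual SD was 0.36, against 0.28 and 0.26 on the other brain arrays and 0.20 to 0.24 on the kidney and liver arrays, so the brain means of the 9 members called there, and the brain counts that moved, are given with and without it. The ratio of Nnt, a gene with a partial deletion in C57BL/6J, was positive on 9 of 9 arrays (0.15 to 1.06). Dim spots could not be filtered, as no intensities were analysed here, and tissue identity cannot be read from ratios.

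Receptors held the highest ratios of the group in each tissue, and in brain 3 of them stood among the 20 highest genes on the array. Over all 60 members, 3 were higher and 6 lower in brain, 12 higher and 8 lower in kidney, and 8 higher and 7 lower in liver. These are 15% of the members in brain against 17.2% of all genes tested, 33.3% against 27.4% in kidney and 25% against 24.5% in liver, so the number of calls was near the background in each tissue. Of all genes tested, 7.55%, 13.5% and 10.1% were higher and 9.61%, 13.9% and 14.4% lower in brain, kidney and liver. The median member lay at -0.01 in brain, 0.03 in kidney and 0.04 in liver, against 0.01, 0.03 and -0.02 for all genes. At least 1 call was made for 30 of the 60 members (50%, against 51.0% of all genes), with 20 called in 1 tissue, 6 in 2 and 4 in all 3. Those 4 were Il6ra and Il9r, higher (as were 0.629% of all genes), and Il3 and Il7r, lower (as were 2.6%). Without brain replicate 3, all 9 brain calls remained and 2 were added (Il12a and Il18, both lower). Leaving out any other array of a tissue lowered its number of calls. Kidney gave 6 higher without kidney replicate 1, 4 higher and 5 lower without kidney replicate 3, and 3 lower without kidney replicate 2. Liver gave 4, 5 and 4 higher and 2, 3 and 4 lower without liver replicate 1, 2 and 3, and brain 3 lower without brain replicate 2. The share of all genes called fell as well. It was 14.4%, 15.1% and 15.8% in kidney without kidney replicates 1, 2 and 3. In liver it was 14.4%, 15.9% and 14.5% without liver replicates 1, 2 and 3, and in brain 6.98% without brain replicate 2.

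**Figure D1:**
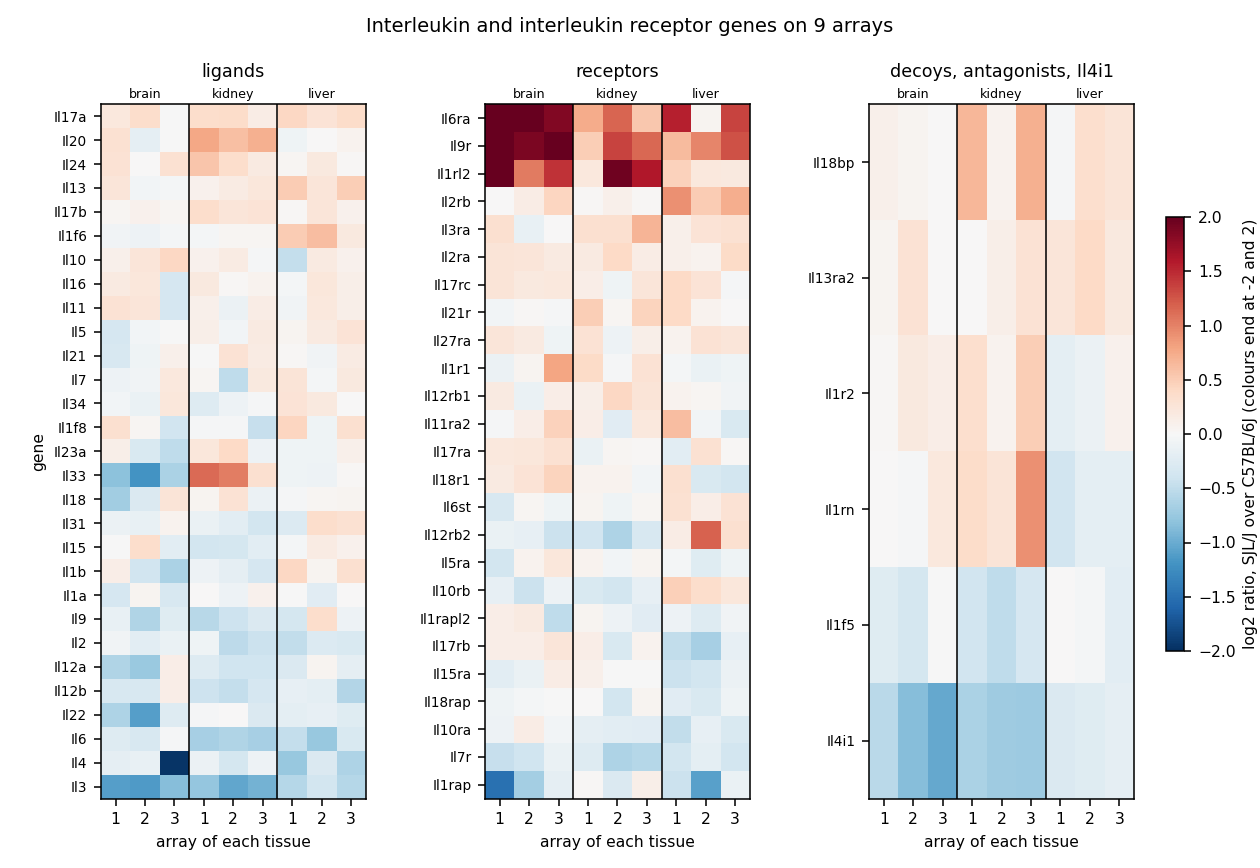
Log2 strain ratio of each of the 60 genes (rows, in 3 panels by role, ordered by the mean over tissues) on each of the 9 arrays (columns, 3 per tissue); red is higher and blue lower in the SJL/J pool, and colours end at -2 and 2. Il6ra, Il9r and Il1rl2 form the red block at the top of the receptors, and Il3 and Il4i1 are blue on all 9 arrays.

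**Figure D2:**
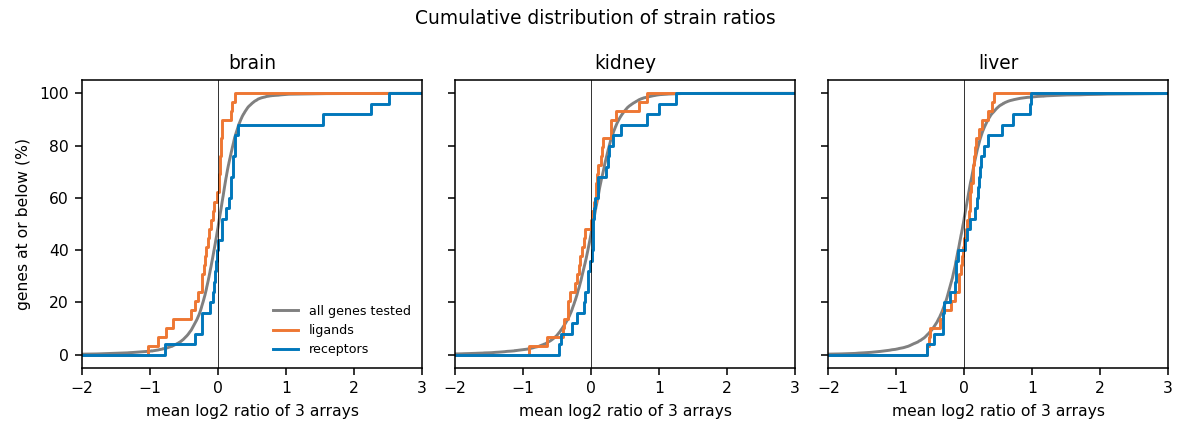
Share of genes at or below each mean log2 ratio of 3 arrays (x axis, shown from -2 to 3; y axis in percent), for all 15096 genes (grey), 29 ligands (orange) and 25 receptors (blue) in each tissue. The receptor curve in brain ends with 3 steps at 1.54, 2.25 and 2.52, while the ligands end at 0.26.

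Among the receptors, Il6ra was the highest member in brain and liver. Il6ra is the chain that binds interleukin 6 and pairs with Il6st to signal. Its log2 ratios on the 3 brain arrays were 2.71, 2.998 and 1.85, a mean of 2.52 ± 0.60 (SD, n = 3; 5.73-fold, adjusted p = 0.0001) and rank 4 of 15096 genes. All brain arrays lay above every kidney and liver array of this gene. In kidney the values were 0.74, 1.17 and 0.54 (mean 0.82 ± 0.32, adjusted p = 0.0436), and in liver 1.55, 0.05 and 1.35 (mean 0.98 ± 0.81, adjusted p = 0.0213). Liver replicate 2 lay near 0 while the other liver arrays were above 1. The brain value was 2.85 without brain replicate 3. The kidney call was lost under 10 of 17 other settings, and the liver call without liver replicate 1 or liver replicate 3.

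Il9r, the specific chain of the interleukin 9 receptor, was higher in all 3 tissues. Its brain arrays read 2.60, 1.89 and 2.26 (mean 2.25 ± 0.36, 4.76-fold, rank 6 of 15096). In kidney it lay at 0.49, 1.36 and 1.14 (mean 0.997 ± 0.45, adjusted p = 0.0023) and in liver at 0.63, 0.98 and 1.28 (mean 0.96 ± 0.32, adjusted p = 0.0028). No kidney or liver array reached the lowest brain array. These calls held under all 17 other settings, and the brain mean was 2.24 without brain replicate 3.

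Il1rl2, the receptor of the IL-36 cytokines, was higher in brain and kidney. Its ratios were 2.13, 1.04 and 1.45 in brain (mean 1.54 ± 0.55, 2.91-fold, adjusted p = 0.0044; 1.59 without brain replicate 3) and 0.20, 1.95 and 1.60 in kidney (mean 1.25 ± 0.92, adjusted p = 0.0073). Kidney replicate 1 lay far below the other kidney arrays, and the kidney call was lost without kidney replicate 2 or without kidney replicate 3. In liver it lay at 0.46, 0.22 and 0.20 and did not pass (mean 0.29 ± 0.15, adjusted p = 0.476). Il6ra, Il9r and Il1rl2 were the members at least 2-fold higher in brain (0.404% of all genes were called at that size), and Il1rl2 was the one at least 2-fold higher in kidney (0.543%). In liver 0 members reached 2-fold, against 1.38% of genes higher and 2.13% lower by that much.

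**Figure D3:**
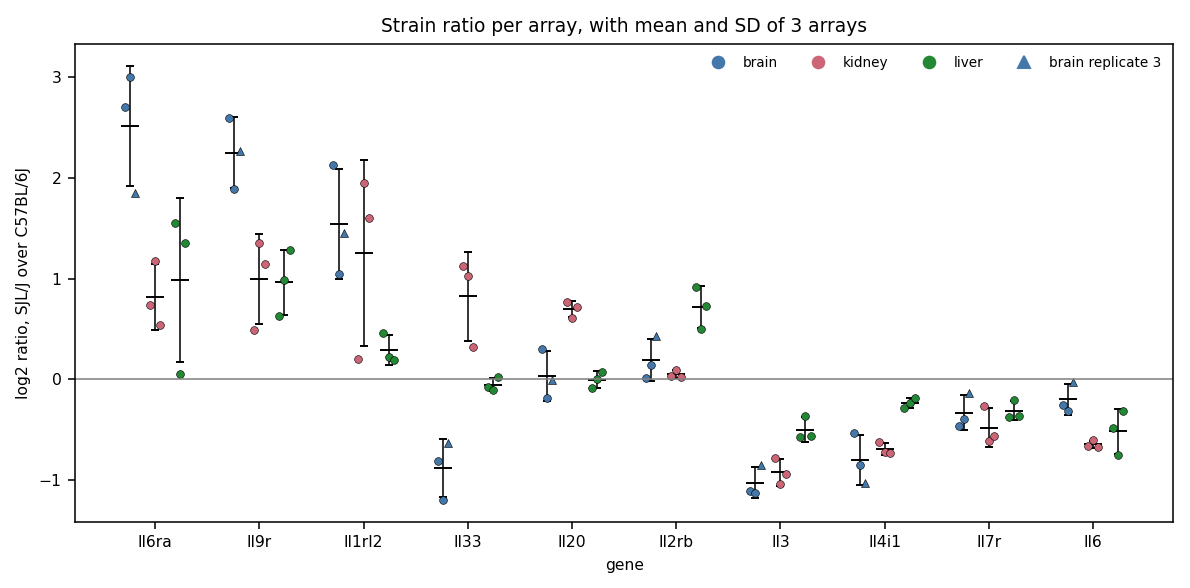
Log2 strain ratio (y axis) of 10 members on every array: points are arrays, coloured by tissue, with brain replicate 3 as a triangle, and bars give the mean and SD of 3 arrays. Il6ra and Il9r are highest in brain, Il33 is below 0 on all brain arrays and above 0 on all kidney arrays, and Il20 and Il2rb stand above the other tissues in kidney and liver respectively.

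The probes of Il6ra, Il9r and Il1rl2 lie at the same place of the probe numbering, the second position of their line of 24 numbers. This was noticed from their values, so the member probes at that position are left out of the shares that follow. The other 2 member probes there, of Il7r and Il2ra, lay at -0.33 and 0.02 in brain. Of the 693 named probes of other genes at that position, 6 (0.866%) had a brain mean of at least 1. Over the other 23 positions together the share was 0.457%, and taken singly they ranged from 0 to 1.10%. In kidney the share was 1.44%, against 0.575% over the other positions together, with single positions reaching 1.69%. In liver it was 1.3% against 1.45%. The median over the 693 was 0.04 in brain, against 0.001 at the other positions. Within their own lines, the other 23 probes reached at most 0.37 in brain beside Il6ra, 0.38 beside Il9r and 0.73 beside Il1rl2. In kidney they reached 0.57, 0.72 and 0.58, and in liver 0.28, 1.47 and 0.72. The liver values beside Il9r and Il1rl2 exceeded those of the genes themselves (0.96 and 0.29). The lowest probe beside Il9r lay at -1.06 in brain and -1.46 in kidney. After the medians of each line and column of the numbering were removed, the brain values were 2.43, 2.21 and 1.37. The part of the position in these ratios was not tested.

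**Figure D4:**
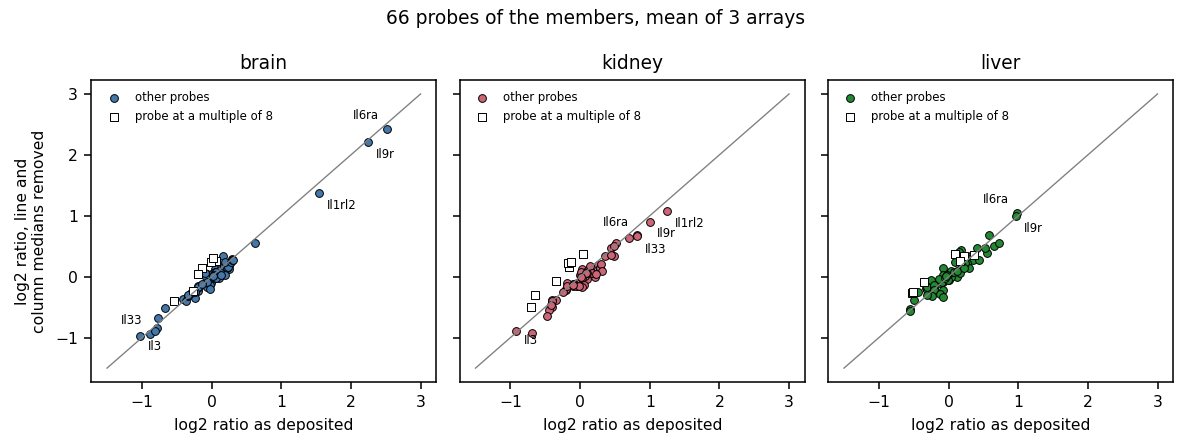
Mean log2 ratio of each of the 66 member probes as deposited (x axis) and after the medians of lines and columns of the probe numbering were removed (y axis), by tissue; the line marks equal values. Most probes lie near the line, and probes at a number that is a multiple of 8 (open squares) lie above it in brain and kidney, as do those in liver except a probe of Il10rb (0.37 as deposited, 0.36 after).

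Most other receptor chains had small ratios. Il2rb, the beta chain shared by the interleukin 2 and interleukin 15 receptors, was higher in liver, with ratios of 0.92, 0.50 and 0.73 (mean 0.72 ± 0.21, adjusted p = 0.0007). Its kidney arrays lay between 0.03 and 0.10 and did not overlap with liver. Il12rb2, a chain of the interleukin 12 receptor, was called higher in liver (0.15, 1.18 and 0.32, mean 0.55 ± 0.55, adjusted p = 0.0303). That call rests on liver replicate 2: without it the mean was 0.24 (adjusted p = 0.224), and the call was also lost without liver replicate 3. With line and column medians removed Il12rb2 lay at 0.39 in liver and was not called. Il10rb, shared by the receptors of interleukin 10 and interleukin 22, was higher in liver (mean 0.36 ± 0.13, adjusted p = 0.0203), where both of its probes lay above 0 (0.34 and 0.37), a call lost without liver replicate 1 or liver replicate 2. Il3ra, the alpha chain of the interleukin 3 receptor, was higher in kidney, at 0.33, 0.33 and 0.68 (mean 0.44 ± 0.20, adjusted p = 0.0138), a call lost without kidney replicate 3.

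Fewer receptor chains were lower. Il7r, the alpha chain of the interleukin 7 receptor that lymphocytes carry, was below 0 on 9 of 9 arrays and lower in brain (-0.33 ± 0.17, adjusted p = 0.0456), kidney (-0.48 ± 0.19, adjusted p = 0.006) and liver (-0.31 ± 0.09, adjusted p = 0.0451). The brain and liver p-values were close to the threshold, and the calls were lost under 10 and 7 of 17 other settings. The kidney call was lost without kidney replicate 2, and the brain mean was -0.43 without brain replicate 3. Il1rap, the accessory chain of the interleukin 1, interleukin 33 and IL-36 receptors, was lower in brain, but its arrays read -1.498, -0.68 and -0.18 (mean -0.79 ± 0.66, adjusted p = 0.0328). The call was lost without brain replicate 1 or brain replicate 2, and the mean was -1.09 without brain replicate 3. In liver Il17rb, a receptor chain for interleukin 25 (-0.44, adjusted p = 0.018), Il10ra (-0.32, adjusted p = 0.0267) and Il15ra (-0.30, adjusted p = 0.0456) were lower. Each of these calls was lost without liver replicate 1, and also without liver replicate 2 for Il17rb and Il15ra and without liver replicate 3 for Il10ra. They were lost as well with line and column medians removed, where Il17rb lay at -0.26, Il10ra at -0.18 and Il15ra at -0.17. By count, 3 of 25 receptors were higher and 2 lower in brain, 4 and 1 in kidney, and 5 and 4 in liver. These are 20%, 20% and 36% of the receptors, against 17.2%, 27.4% and 24.5% of all genes.

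Among the ligands, none was higher in brain, while 3 of 29 were lower. Kidney had 5 ligands higher and 5 lower, and liver 3 higher and 3 lower. In brain, kidney and liver 10.3%, 34.5% and 20.7% of the ligands were called, against 17.2%, 27.4% and 24.5% of all genes. Il33, the alarmin of barrier and resident cells, was the single member with opposite calls in 2 tissues (2.39% of all genes had such calls). Its brain arrays read -0.81, -1.20 and -0.63 (mean -0.88 ± 0.29, 1.84-fold lower, adjusted p = 0.0034). Its kidney arrays read 1.13, 1.02 and 0.32 (mean 0.82 ± 0.44, 1.77-fold higher, adjusted p = 0.0027). In liver the values were -0.08, -0.10 and 0.03. The 3 tissues did not overlap, both calls held under all 17 other settings, and brain replicate 3 lay on the side of the other brain arrays. Without that array the brain mean was -1.01. The 23 other probes in its line had medians of 0.08 in brain and 0.11 in kidney. Il1rl1, the receptor of IL-33, is not among the genes named by a single symbol here.

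Il3, a growth factor of mast cells, basophils and blood progenitors, was lower in all 3 tissues and was the lowest member in brain and kidney. Its ratios were -1.11, -1.13 and -0.85 in brain (mean -1.03 ± 0.15, 2.04-fold lower, adjusted p = 0.0001), and -0.78, -1.04 and -0.94 in kidney (mean -0.92 ± 0.13, adjusted p = 0.0001). In liver they were -0.58, -0.36 and -0.57 (mean -0.50 ± 0.12, adjusted p = 0.0035). All 9 arrays lay below 0, the liver arrays above all others, and the calls held under all 17 other settings. The brain mean was -1.12 without brain replicate 3. Il3 was the one member at least 2-fold lower in brain (1.37% of all genes).

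Il20, a cytokine of the interleukin 10 family that acts on epithelium, was higher in kidney at 0.77, 0.61 and 0.72 (mean 0.70 ± 0.08, adjusted p = 0.0007). The brain and liver arrays lay between -0.18 and 0.30, below all kidney arrays. Il24, its neighbour in family and in the genome, was also higher in kidney (mean 0.36 ± 0.18, adjusted p = 0.0209), a call lost without kidney replicate 1 or kidney replicate 2. Il22, another cytokine of this family, was lower in brain, at -0.62, -1.10 and -0.26 (mean -0.66 ± 0.42, adjusted p = 0.0078). The Il22 call was lost without brain replicate 2, and the mean was -0.86 without brain replicate 3.

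Il6, the inflammatory cytokine whose receptor chain stood highest, was lower in kidney and liver. Its kidney arrays read -0.66, -0.60 and -0.67 (mean -0.65 ± 0.04, adjusted p = 0.0011) and its liver arrays -0.48, -0.75 and -0.31 (mean -0.51 ± 0.22, adjusted p = 0.004). Its probe has a number that is a multiple of 8, a class of 2880 probes (12.5%) with low ratios on these arrays. With line and column medians removed the values were -0.30 in kidney and -0.25 in liver, and both calls were lost. The probe of Il2, the growth factor of T cells, is of the same class, and its ratios of -0.35 ± 0.23 in kidney (adjusted p = 0.0255) and -0.36 ± 0.12 in liver (adjusted p = 0.024) became -0.06 and -0.08 in that way. The Il2 calls were lost without kidney replicate 2 or kidney replicate 3, and without any 1 of the liver arrays. Il11, Il34 and Il1f8 were also measured by such a probe alone and were not called. With line and column medians removed, Il34 was higher in brain (0.31, adjusted p = 0.0276) and Il11 higher in liver (0.37, adjusted p = 0.0473).

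The remaining ligand calls were below 0.5 in size. In kidney Il17a, the signature cytokine of Th17 cells, and Il17b were higher at 0.29 each (adjusted p = 0.0426 and 0.0249). Il9 (-0.42, adjusted p = 0.0395) and Il12b, the subunit shared by interleukin 12 and interleukin 23 (-0.41, adjusted p = 0.0251), were lower there. Il17a was higher in liver as well (0.35, adjusted p = 0.0189), as were Il13, a type 2 cytokine (0.41, adjusted p = 0.0101), and Il1f6, an agonist of Il1rl2 (0.44, adjusted p = 0.0061). Il4, the other type 2 cytokine of that locus, read -0.18, -0.14 and -1.97 in brain and did not pass (adjusted p = 0.0798). Its lowest value came from brain replicate 3, but Il4 was below 0 on 9 of 9 arrays. In liver it was the lowest member at -0.75, -0.28 and -0.62 (mean -0.55) and did not pass (adjusted p = 0.169). With array weights, without brain replicate 3 and with each tissue fitted alone, Il4 was called lower in liver. In kidney the calls of Il17a, Il17b, Il9 and Il12b were each lost without kidney replicate 1, kidney replicate 2 or kidney replicate 3. In liver those of Il13 and Il17a were lost without liver replicate 1 or liver replicate 3, and that of Il1f6 without liver replicate 2. With line and column medians removed, Il17a was not called in kidney (0.15) or liver (0.28), nor Il17b in kidney (0.15).

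Of the 3 antagonists and 2 decoys, 4 were called in kidney (27.4% of all genes were) and 0 in brain or liver. Among the differences between tissues of these 4, that of Il1rn passed for liver minus kidney (-0.77, adjusted p = 0.0121), and the others did not pass. Il1rn, which blocks the interleukin 1 receptor, was higher in kidney at 0.37, 0.25 and 0.92 (mean 0.52 ± 0.35, adjusted p = 0.0104), a call lost without kidney replicate 3. Il18bp, the soluble trap of interleukin 18, was higher at 0.66, 0.07 and 0.72 (mean 0.48 ± 0.35, adjusted p = 0.0157), a call lost without kidney replicate 1 or kidney replicate 3. With line and column medians removed Il18bp lay at 0.34 in kidney and was not called. Il1r2, a decoy for interleukin 1, passed narrowly (0.30 ± 0.21, adjusted p = 0.0493). Its call was lost under 12 of 17 other settings, among them without kidney replicate 1 (adjusted p = 0.187) and without kidney replicate 3 (adjusted p = 0.293). Il1f5, the antagonist of Il1rl2, was lower in kidney (-0.41 ± 0.09, adjusted p = 0.0095), though not past the test without kidney replicate 2. Il13ra2, the decoy for interleukin 13, was above 0 on 9 of 9 arrays but passed in none of the tissues (0.12, 0.14 and 0.27). Il4i1, an amino acid oxidase induced by interleukin 4, was lower in brain at -0.54, -0.85 and -1.03 (mean -0.80 ± 0.25, adjusted p = 0.0004). It was also lower in kidney at -0.63, -0.72 and -0.73 (mean -0.69 ± 0.06, adjusted p = 0.0006), and all 9 of its arrays lay below 0. Without brain replicate 3 the brain mean was -0.69.

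Ligands and their receptor chains can be set side by side, each from its own probes. Il6 and Il6ra had opposite signs in kidney and liver (-0.65 and 0.82, -0.51 and 0.98), with the Il6 calls subject to the probe class above. Il9 and Il9r differed in sign in kidney (-0.42 and 0.997), and Il9 did not pass in brain (-0.33) or liver (-0.04). Il3 and Il3ra differed in sign in kidney (-0.92 and 0.44), and Il3ra did not pass in brain (0.06) or liver (0.22). For the IL-36 system in brain, Il1rl2 lay at 1.54 while its agonists Il1f6 and Il1f8 lay at -0.07 and -0.01 and its antagonist Il1f5 at -0.20. Neither agonist nor antagonist passed the test. Il1rap, the accessory chain, was called lower in brain (-0.79), a call lost without brain replicate 1 or brain replicate 2. Other pairs shared a sign, with 1 side past the test: Il12b and Il12rb2 in kidney (-0.41 and -0.44), Il13 and Il13ra2 in liver (0.41 and 0.27), and Il17a and Il17rc in liver (0.35 and 0.22). In each of these the ligand was the side that passed. Of other chains of these receptors, Il12rb1 lay at 0.26 in kidney, opposite in sign to Il12b, and Il17ra at 0.03 in liver. Neither of these chains passed. Interleukin 2 and its chains in liver gave -0.36 for Il2, 0.72 for Il2rb and 0.18 for Il2ra, the last not past the test.

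Strain ratios differed between tissues for some members, by contrasts in the same fit. Between liver and kidney 8 of 60 differed (13.3%, against 19.5% of all genes), between liver and brain 10 (16.7%, against 11.6%) and between brain and kidney 4 (6.67%, against 5.47%). Brain minus kidney, the log2 ratio of Il33 differed by -1.70 (SE 0.21, adjusted p = 0.0031), that of Il6ra by 1.70 (SE 0.38, adjusted p = 0.0308) and that of Il9r by 1.25 (SE 0.25, adjusted p = 0.0211). Liver minus brain, Il6ra differed by -1.53 (adjusted p = 0.0254) and Il9r by -1.29 (adjusted p = 0.0088). The difference of Il1rl2 did not pass for liver minus brain (-1.25, SE 0.39, adjusted p = 0.061) or liver minus kidney (-0.96, adjusted p = 0.105). A test of 1 ratio shared by the tissues called 0 members (0.709% of all genes), with 13 at an unadjusted p under 0.05 in limma (15.9% of all genes). The contrast counts were sensitive to single arrays, as were the shares of all genes. Liver against brain fell to 5, 1, 4, 2 and 5 without brain replicates 1 and 2 and liver replicates 1, 2 and 3. Of all genes 12.5%, 7.27%, 6.58%, 7.33% and 8.15% differed there. Brain against kidney gave 2, 2, 7, 1, 2 and 1 without brain replicates 1, 2 and 3 and kidney replicates 1, 2 and 3. Of all genes 3.14%, 1.44%, 15.4%, 1.47%, 1.46% and 2.05% did. Liver against kidney gave 4 without kidney replicate 2 (12.3% of all genes) and 5 without liver replicate 2 (13.2%).

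Probes of 1 gene did not always give 1 answer. The probes of Il15, a cytokine that sustains natural killer cells, lay at 0.63 and -0.54 in brain, 0.08 and -0.70 in kidney, and 0.66 and -0.52 in liver, so the mean near 0 hides opposite values. The lower probe has a number that is a multiple of 8. With each probe fitted on its own, both passed in brain (adjusted p = 0.0243 and 0.0066) and liver (adjusted p = 0.016 and 0.0057), in opposite directions. The probes of Il6st lay at -0.37 and 0.13 in brain, where the first passed (adjusted p = 0.0399), and at -0.08 and 0.58 in liver, where the second did (adjusted p = 0.007). Of the 4 probes of Il2ra, 2 passed in kidney (0.44 and 0.49) beside others at -0.19 and 0.23. In liver 1 of them passed (0.52) beside 0.24, 0.18 and -0.21. Il11ra2 has a close copy in Il11ra1, so its ratio cannot be assigned to 1 gene with certainty.

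Members that lie close together in the genome often differed in their ratios. By RefSeq on GRCm38.p6, 22 members lie within 1 Mb of another in 7 clusters. On chromosome 1 Il1rl2 lies with Il1r2, Il1r1, Il18r1 and Il18rap, and in brain it was the 1 gene of these 5 that was called (17.2% of all genes were). In kidney Il1rl2 (1.25) and Il1r2 (0.30) were both called higher (27.4% of all genes were called), and in liver 0 of the 5 were called. On chromosome 11 Il3 lies with Il4, Il13 and Il5, whose brain means ranged from -1.03 for Il3 to 0.05 for Il13, with Il3 alone called. In liver the cluster held a gene called lower, Il3, beside one called higher, Il13. In the chromosome 1 cluster of Il24, Il20 and Il10, both Il20 and Il24 were higher in kidney and Il10 was not called (0.07).

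Genes that carry the signal of these receptors were counted from lists chosen by function, with earlier results of these data known. Of 23 JAK, STAT, SOCS and PIAS genes measured, 3 were higher and 0 lower in brain, 2 and 1 in kidney, and 5 and 2 in liver (medians -0.04, 0.05 and -0.03). These are 13.0%, 13.0% and 30.4% of the list, against 17.2%, 27.4% and 24.5% of all genes. In liver Stat4, which interleukin 12 activates, lay at 1.09 ± 0.13 (adjusted p = 1.87e-05), and Socs3, the feedback inhibitor of interleukin 6 signalling, at 0.79 ± 0.10 (adjusted p = 0.00011). Stat3 was higher there too (0.42), while Socs2 (-0.78) and Jak2 (-0.62) were lower. In kidney Socs3 was lower (-0.42, adjusted p = 0.006). In brain the 3 genes higher were Stat2 (0.48, adjusted p = 0.00694), Stat4 (0.38, adjusted p = 0.0212) and the phosphatase gene Ptpn11 (0.37, adjusted p = 0.0411). Without brain replicate 3 the brain count was 2 higher and 3 lower.

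Of 20 acute phase genes that interleukin 6 and interleukin 1 induce, 18 were higher and 0 lower in liver, with a median of 0.82. That list too was written with earlier results of these data known. Of all genes, 10.1% were higher and 14.4% lower in liver. In brain 3 were higher and 1 lower (median 0.08), and in kidney 1 higher and 3 lower (median 0.07). Without brain replicate 3 the brain count was 2 and 1. Lcn2 (3.40 ± 0.52) and Orm2 (2.92 ± 0.27) led in liver. Within these same liver pools the ratios of Il6, Il6ra and Il1b were -0.51, 0.98 and 0.26, and Il1b did not pass (adjusted p = 0.173). The Il6 probe is of the class at multiples of 8. With line and column medians removed its liver value was -0.25 and not called. The part of these 3 genes in the acute phase ratios was not tested. Of 14 genes of IL-1 and IL-17 signalling, 1 was higher in brain, 2 were higher and 3 lower in kidney, and 2 were lower in liver. These are 7.14%, 35.7% and 14.3% of that list, against 17.2%, 27.4% and 24.5% of all genes. In brain 1 was lower as well without brain replicate 3. In kidney Nfkbiz was higher (0.69) and Nfkbia, the inhibitor of NF-kB, lower (-0.71), and in liver Rela (-0.81) and Nfkbia (-0.62) were lower.

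Of 19 receptor partners and related cytokines outside the name rule, 1 was higher and 2 lower in brain, 1 and 1 in kidney, and 1 and 2 in liver. These are 15.8%, 10.5% and 15.8% of the list, against 17.2%, 27.4% and 24.5% of all genes. The brain count was 1 and 1 without brain replicate 3. The gp130 family receptor Lifr was lower in liver (-0.44), the gp130 ligand Clcf1 was higher there (0.54) and Ctf1 higher in kidney (0.66). Csf3, the granulocyte growth factor, was lower in kidney (-0.32) and liver (-0.43).

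Markers of cells that make or receive interleukins were counted beside these results. Of all genes tested, 17.2%, 27.4% and 24.5% were called in brain, kidney and liver. Of 12 T cell markers, 2 were higher and 2 lower in brain, 1 and 1 in kidney, and 2 higher in liver (medians -0.09, -0.03 and 0.01). Of 15 mast cell, basophil and eosinophil markers, which include cells that respond to interleukins 3, 9 and 33, 2 were higher and 1 lower in brain, 2 and 2 in kidney, and 2 higher in liver (medians -0.01, 0.14 and 0.02). Among them Mcpt8, a basophil protease, was lower in brain (-0.40) and kidney (-0.66). The mast cell proteases went both ways: Mcpt4 (0.45) and Tpsb2 (0.37) were higher in brain and Mcpt2 (0.50) and Tpsb2 (0.49) higher in kidney, while Cpa3 was lower in kidney (-0.51) and higher in liver (0.59). Of 18 macrophage and microglia markers, 6 were higher and 3 lower in kidney, 1 and 2 in brain, and 3 higher in liver. In kidney Adgre1 (0.92) and Tyrobp (0.73) were the highest of them and Cx3cr1 (-0.50), Cd14 (-0.41) and Marco (-0.38) were lower, with a median of 0.00 over the 18. Of 11 B cell markers, 1 was higher and 2 lower in brain, 2 and 1 in kidney, and 1 higher in liver. Of 11 neutrophil markers, 1 was higher and 5 lower in brain, 2 and 3 in kidney, and 3 and 2 in liver (54.5%, 45.5% and 45.5% called). These markers went both ways. In brain, kidney and liver Cxcr2 (-0.98, -2.82 and -1.38) and Mmp9 (-1.19, -1.41 and -1.36) were lower and S100a9 (0.75, 0.63 and 0.78) higher. S100a8 was higher in liver (1.21). Of 10 endothelial markers, 1 was lower in brain, 1 higher in kidney and 1 lower in liver. Without brain replicate 3 the brain counts were 3 higher and 5 lower for neutrophil markers, 2 and 2 for macrophage and microglia markers and 1 and 1 for B cell markers, and those of the other 3 cell types did not move. The part of these cell types in the ratios of the interleukin genes was not tested.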

How the data were processed

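RNA of 3 tissues was compared on 9 two-colour arrays. The authors deposited 1 log2 ratio per probe and array (base and direction inferred); per the submitters' processing notes they used R 2.0.0 and limma. Neither background correction nor within-array scaling is given in the sources used here. The sorted values of all columns were identical. Probes were named by the platform annotation: 16874 carried a single symbol, 134 several and 6032 none. All 60 members matched GRCm38.p6 by gene identifier, and 0 symbols changed. Probes of a gene were averaged. With limma 3.58.1 in R 4.3.3, 1 coefficient per tissue was fitted to all 9 arrays (6 residual and 5.17 prior degrees of freedom, prior SD 0.20). Tissue means and differences between tissues were tested two-sided with Benjamini-Hochberg adjustment over 15096 genes, and the shared ratio on 3 tissue means. The script was tested on simulated data. Alternatives covered probe handling, the layout of probe numbers, array weights, robust priors, the replicate block, separate fits and leaving out each array. Named genes were, per tissue, up to 8 highest and 8 lowest among called members with 1 sign on all arrays, members called in all tissues or in opposite directions, the 8 largest differences, members whose probes disagree, and their partners, with up to 6 called genes per list. Other members (Il12a, Il18, Il17b, Il24, Il1r2, Il4, Il11, Il34, Il1f8, Il13ra2, Il10, Il1b, Il1r1, Il18r1, Il18rap, Il5, Il11ra2, Il17rc, Il12rb1, Il17ra) were named after their values were seen. The members and lists were chosen with earlier results of these data known. The precision is limited by the number of arrays.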

Additional observations from a re-analysis of the deposited data

Results flagged for a closer look

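The strain ratio of 12 members differed between tissues by limma's contrasts at an adjusted p of 0.05 over all genes, and each such difference is given here as a log2 value with no explanation. These tests measure array spread within the same pools.

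For liver minus kidney, the receptor chains Il12rb2 (0.996), Il2rb (0.67) and Il10rb (0.64), the oxidase gene Il4i1 (0.46) and the cytokine Il1f6 (0.43) had a higher ratio in liver. Il33 (-0.87), Il1rn (-0.77) and Il20 (-0.70) had a lower one.

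For liver minus brain, Il33 (0.83), Il12rb2 (0.79), Il10rb (0.59), Il4i1 (0.57), Il3 (0.53), Il2rb (0.52) and Il1f6 (0.51) had a higher ratio in liver. For Il3 this was a smaller deficit of the SJL/J pool in liver (-0.50) than in brain. Il4i1 (-0.24) and Il33 (-0.05) were lower in brain and not called in liver. Il6ra (-1.53), Il9r (-1.29) and Il17rb (-0.61) had a lower ratio in liver than in brain.

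For brain minus kidney, Il6ra (1.70) and Il9r (1.25) had a higher ratio in brain, and Il33 (-1.70) and Il20 (-0.66) a lower one. Il12rb2 differed in both liver contrasts, with liver arrays of 0.15, 1.18 and 0.32 of which liver replicate 2 was far above the others.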

How the results depend on the processing

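Of 41 named calls, 14 kept their side of the threshold under every setting tried that could be fitted (Il6ra and Il1rl2 in brain, Il9r and Il3 in all tissues, Il33 and Il4i1 in brain and kidney, Il20 in kidney, Il2rb in liver), 27 were lost under at least 1 and 0 reversed. With line and column medians removed, counts moved to 7 higher in kidney, 3 lower in liver and 6 differing between liver and brain. Of all genes, 19.8% were then called in kidney, 20.5% in liver and 9.98% between liver and brain. Array weights gave 13 lower in kidney, where 40.8% of all genes were called. Separate fits of 3 arrays gave 3 lower in brain, where 3.07% of all genes were called. The shared ratio called 1 member with every probe fitted on its own and 1 with unnamed probes as rows.

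Leaving out 1 array at a time gave 3 to 4 higher and 3 to 8 lower in brain, 4 to 14 and 3 to 11 in kidney, 4 to 9 and 2 to 10 in liver, and 4 to 10, 1 to 10 and 1 to 7 differing for liver against kidney, liver against brain and brain against kidney. Over the same fits the share of all genes called was 6.98% to 20.7% in brain, 14.4% to 34.2% in kidney and 14.4% to 30.8% in liver. The labels do not say that an array number marks anything shared across tissues. As a check of pairing, deviations of same-numbered arrays correlated at -0.08 to 0.05, 0 of 9 pairs exceeded 0.1, and 1 of 9 arrays correlated best with its own number. With the replicate block brain had 8 calls, kidney 16, liver 13 and liver against brain 6. Without intensities, signal over background could not be weighed.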
